A study of Mus musculus with 12 samples.

Results

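The 78 genes described here carry the names Mrpl and Mrps followed by a number, which were given to proteins of the large and the small subunit of the mitochondrial ribosome. The names do not match the subunit throughout, since Mrps30 and Mrps18a are proteins of the large subunit and Mrps36 is now known as a part of the 2-oxoglutarate dehydrogenase complex. They were all the rows of the gene count table whose symbol began in that way, 49 Mrpl and 29 Mrps genes among 12960 rows. All 78 passed the filter on low counts that left 10822 genes for testing, and the lowest count of any of them in any library was 4.

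RNA was sequenced from bone marrow derived macrophages (BMDMs), which are macrophages grown from the marrow of mice in medium conditioned by L929 cells as a source of M-CSF. The cells came from WT mice or from AMPKβ1-/- mice, a whole-body knockout of the β1 regulatory subunit of AMP-activated protein kinase (AMPK). Cells of both genotypes received vehicle, which was 0.1% DMSO, or PF-06409577 (PF), a small molecule activator of AMPK complexes that hold β1, at 10 μM for 6 h. Each of the 4 groups had 3 libraries, numbered here by their column in the count table. Whether the PF groups also held DMSO was not stated, and the age and sex of the marrow donors and the number of mice behind a group were not given. The knockout was present from birth and in every cell, so a difference between genotypes includes whatever the marrow brought into culture.

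Mitochondrial ribosomes translate the few messages of the mitochondrial genome, which encode core subunits of the respiratory chain. Their RNA is made in the organelle, whereas all of their proteins are encoded in the nucleus, made in the cytosol and imported. About the core that was inherited from a bacterial ancestor lies a shell of proteins that bacterial ribosomes lack. AMPK senses low cellular energy and is known to promote both the removal of damaged mitochondria and the formation of new ones.

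Libraries held 8935609 to 14358180 counts, with 3 counts equal to 0.196 to 0.321 CPM, which are counts per 1000000 counts of a library. Levels are given as CPM scaled by TMM, a factor that brings the bulk of genes to the same level in all libraries, and this factor was 0.881 to 0.995 in WT and 1.05 to 1.09 in AMPKβ1-/- libraries. Prkab1, the gene of AMPKβ1, was at 37.3 to 45.3 CPM in WT and at 6.05 to 9.42 CPM in AMPKβ1-/- libraries. Its log2 fold change between genotypes was −2.57 ± 0.12 (SE) with vehicle and −2.13 ± 0.12 with PF. All 9 macrophage markers were tested and their sum was 25377 to 29872 CPM over the 12 libraries. Single markers did differ by edgeR's test at an adjusted p below 0.05. In AMPKβ1-/- against WT 2 were higher and 4 lower with vehicle, and 3 and 2 with PF. After PF in WT 0 were higher and 3 lower. Of all tested genes 29.7% and 30%, 24.1% and 22.9%, and 6.99% and 8.95% were called so, in that order. The 5 of 8 granulocyte, 3 of 9 lymphoid and 5 of 6 dendritic cell markers in the table summed to at most 1.39, 2.35 and 1.46 CPM, and none of 5 mast cell markers was listed. The 6 of 7 fibroblast markers in the table summed to 2.09 to 8.93 CPM in AMPKβ1-/- libraries with vehicle and to 0.923 to 2.12 CPM in the other groups. GC content moved with the groups. The slope of a library's log2 levels per 10 points of GC, relative to the mean of all libraries, was on average 0.54 in WT with vehicle, 0.16 in WT with PF, −0.27 in AMPKβ1-/- with vehicle and −0.44 in AMPKβ1-/- with PF.

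The promoters of 4 members that differed between genotypes with vehicle are shown, because they hold the letters bound by regulators known for nuclear genes of mitochondria. They were picked for these letters and do not stand for the members as a whole. The letters were the NRF1 motif, which is GCGC, any base and TGCGC, and CCGGAAGT, bound by the ETS factor GABP. Both were searched on both strands, from 250 bases before to 50 bases after the start of the gene in RefSeq (GRCm38.p6). The printed stretches lie before the start and in no annotated exon, read 5′ to 3′ on the strand of the gene, and capitals mark the match.

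Mrps22 and Mrps18c, whose RNA was low in WT libraries with vehicle, hold the ETS letters, which in Mrps22 begin 11 bases before the start (chr9:98601680-98601929, minus strand) and in Mrps18c begin 157 bases before it, on the opposite strand (chr5:100798599-100798626, plus strand).
Mrps22: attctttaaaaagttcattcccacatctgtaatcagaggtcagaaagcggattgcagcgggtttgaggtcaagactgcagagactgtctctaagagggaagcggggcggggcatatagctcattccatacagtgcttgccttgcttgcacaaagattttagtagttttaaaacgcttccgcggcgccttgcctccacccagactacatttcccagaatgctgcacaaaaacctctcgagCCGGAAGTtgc
Mrps18c: gtgACTTCCGGcccgggaagcgcgggaa
Mrpl17 and Mrpl12, whose RNA was lower in AMPKβ1-/- libraries with vehicle, hold the NRF1 letters, which begin 49 bases before the start in Mrpl17, on the opposite strand (chr7:105811100-105811337, minus strand), and 81 bases before it in Mrpl12 (chr11:120484387-120484612, plus strand).
Mrpl17: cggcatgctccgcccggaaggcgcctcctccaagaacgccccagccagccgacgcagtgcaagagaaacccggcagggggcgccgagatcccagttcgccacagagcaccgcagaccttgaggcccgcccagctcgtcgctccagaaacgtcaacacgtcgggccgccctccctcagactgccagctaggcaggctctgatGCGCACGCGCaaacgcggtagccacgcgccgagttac
Mrpl12: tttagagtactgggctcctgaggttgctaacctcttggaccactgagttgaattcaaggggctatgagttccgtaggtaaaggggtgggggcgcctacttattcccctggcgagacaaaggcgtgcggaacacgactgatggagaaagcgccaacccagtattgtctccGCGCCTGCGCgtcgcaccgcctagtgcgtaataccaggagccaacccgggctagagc

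A promoter window was found for 69 members. NRF1 letters were in 13 of them (18.8%) and ETS letters in 12 (17.4%), against 11.3% and 8.98% of 10347 genes of the count table with a window. At least 1 of the motifs was in 24 members. Of the 34 members with a window that were lower in AMPKβ1-/- than in WT BMDMs with vehicle, 12 held a motif, and so did 12 of the other 35. A match of letters is a description and not a binding site.

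The members were expressed at moderate levels. Their mean over all libraries ran from 1.63 to 68.5 CPM with a median of 27.5 CPM, and the 5 highest held 13.9% of their sum. They were spread over 17 chromosomes, with 11 on chromosome 11. The median transcript length of a member was 1225 bases, against 2690 bases for tested genes, and the median GC content was 50.0% against 50.6%.

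Per kilobase of transcript, the highest members were Mrps21 at 102, Mrpl20 at 85.6, Mrps18a at 68.7, Mrpl28 at 64.9 and Mrpl24 at 55.7 CPM per kb. The lowest were Mrpl47 at 1.10, Mrpl1 at 1.80 and Mrpl23 at 2.35 CPM per kb. Although the proteins are parts of a single particle, their RNAs thus differed widely in level per length. Mrpl47 shares exon sequence on the opposite strand with Actl6a and Ndufb5, and the strand setting of the counting was not stated.

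Loss of AMPKβ1 went with lower RNA of mitochondrial ribosomal proteins. The 78 members summed to 2485 ± 230 CPM (SD, n = 3) in WT and 1984 ± 33.8 CPM in AMPKβ1-/- libraries with vehicle, a difference of −20.2%. With PF the sums were 2520 ± 127 CPM and 1934 ± 67.8 CPM, a difference of −23.2%. The lowest WT library was at 2259 CPM and the highest AMPKβ1-/- library at 2018 CPM, so the genotypes did not overlap. The genes of either name had lower sums, as the Mrpl sum was 1607 ± 144 CPM in WT and 1265 ± 30.4 CPM in AMPKβ1-/- libraries with vehicle, and the Mrps sum 879 ± 85.5 CPM and 720 ± 4.94 CPM. With PF the sum differed from vehicle by 1.39% in WT and by −2.53% in AMPKβ1-/- BMDMs, with overlapping libraries in both genotypes. Scaled by library size alone, the sums with vehicle overlapped, at 2084 to 2394 CPM in WT and 2043 to 2131 CPM in AMPKβ1-/- libraries. In RNA of whole cultures, fewer cells with high levels and less RNA in each cell cannot be told apart.

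**Figure D1:**
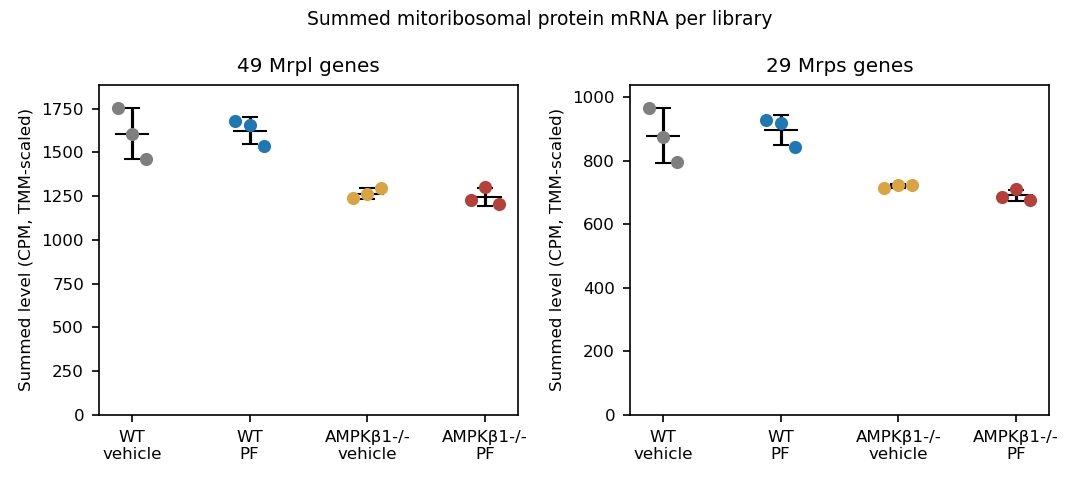
Summed level of the 49 Mrpl genes (left) and the 29 Mrps genes (right) in each library, in TMM-scaled CPM on axes that start at 0. Points are libraries and bars are the mean and SD of 3 libraries. The Mrpl sums of all 6 WT libraries (1464 to 1752 CPM) lie above those of all 6 AMPKβ1-/- libraries (1206 to 1300 CPM).

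With vehicle, 39 of the 78 members were lower and 8 were higher in AMPKβ1-/- than in WT BMDMs at an adjusted p below 0.05 (edgeR's quasi-likelihood test, Benjamini-Hochberg over all tested genes). Of all tested genes, 30% were lower and 29.7% were higher. The median log2 fold change of the members was −0.32, against −0.03 for all tested genes. Groups without overlap had 43 members below and 8 above, against 32% and 30.9% of all tested genes. The 4 members that also passed a log2 fold change of 0.8, the threshold of the study's methods, were all higher, where 16.1% of tested genes passed it as higher and 1.76% as lower.

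Many of the single calls that follow depend on the GC content and length of transcripts. With the trend of every library with these taken out, 14 of the 39 lower and 3 of the 8 higher members passed again in the same direction, and so did 10 lower and 3 higher members that had not passed before.

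Among the lower members, those inherited from bacteria included Mrpl4 and Mrpl2, which belong to the core of the large subunit, and Mrpl28. Mrpl4 was at 83.2, 83.4 and 80.5 CPM in WT and at 56.9, 55.4 and 51.2 CPM in AMPKβ1-/- libraries with vehicle, a log2 fold change of −0.59 ± 0.10 (edgeR adjusted p = 0.000191). Mrpl28 was at 103, 82.7 and 74.1 CPM in WT and at 57.6, 52.3 and 56.4 CPM in AMPKβ1-/- libraries (−0.64 ± 0.11, adjusted p = 0.000259). For both genes every AMPKβ1-/- library lay below every WT library, whereas the first WT library was well above the others for Mrpl28. Mrpl17 had the lowest value, with 60.2, 53.6 and 48.6 CPM in WT and 32.9, 31.6 and 36.1 CPM in AMPKβ1-/- libraries (−0.69 ± 0.12, adjusted p = 0.000293). Mrpl2 (−0.61) and Mrpl10 (−0.44), which anchors the stalk, were lower too, as was Mrpl12 (−0.49 ± 0.12), the stalk protein that contacts translation factors. In the small subunit Mrps11 (−0.65), a protein of the platform, and Mrps24 (−0.57), the counterpart of bacterial S3, were lower. Of these Mrpl17 and Mrps11 passed with the GC and length trend taken out, whereas Mrpl4 (−0.11), Mrpl28 (−0.16), Mrpl2 (−0.15, adjusted p = 0.138), Mrpl10 (−0.11, adjusted p = 0.232), Mrpl12 (−0.073, adjusted p = 0.547) and Mrps24 (−0.17, adjusted p = 0.152) did not. Mrps12 (−0.36), the counterpart of the decoding protein S12, was lower with adjusted p = 0.0208, but its value turned to 0.11 in that fit. Mrps11 overlaps exons of Mrpl46 on the opposite strand, and Mrps24 overlaps exons of Urgcp on the same strand.

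Of the mitochondria-specific proteins, 12 of 21 in the large and 5 of 10 in the small subunit were lower, and 0 and 2 were higher. Of the members with bacterial counterparts, 15 of 30 in the large and 7 of 16 in the small subunit were lower, and 5 and 1 were higher. Mrpl37 (−0.55) and Mrpl38 (−0.58) were lower. Mrpl58, a peptidyl-tRNA hydrolase that became a ribosomal protein, was at 43.0, 33.5 and 31.5 CPM in WT and at 20.2, 24.3 and 24.5 CPM in AMPKβ1-/- libraries (−0.64 ± 0.15, adjusted p = 0.00233). Mrpl44, which is related to ribonuclease III, was lower at −0.39, and so was Mrps30 at −0.38. Mrpl37 (−0.16), Mrpl38 (−0.10) and Mrpl44 (−0.15) did not pass with the GC and length trend taken out. Mrpl45, which lies near the exit of the nascent chain, differed by −0.12 (adjusted p = 0.296), and this value turned to 0.095 with library size alone. Mrps36 differed by −0.14 (adjusted p = 0.433) and turned to 0.071 with library size alone.

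The higher members were few and mostly of low level. Mrpl1, the protein of the L1 stalk, was at 1.39, 3.51 and 4.78 CPM in WT and at 6.47, 9.59 and 8.59 CPM in AMPKβ1-/- libraries with vehicle, the largest positive value at 1.34 ± 0.34 (adjusted p = 0.00461). Mrps22, a mitochondria-specific protein of the small subunit, was at 3.85, 4.34 and 4.28 CPM in WT and at 7.11, 9.06 and 7.85 CPM in AMPKβ1-/- libraries (0.95 ± 0.19, adjusted p = 0.000772). The groups did not overlap for either gene. Mrpl47 (0.90 ± 0.28) and Mrps18c (0.91 ± 0.18) also passed both thresholds. With the GC and length trend taken out, Mrpl1 was at 0.25 (adjusted p = 0.437) and Mrpl47 at 0.32 (adjusted p = 0.335) and neither passed. Mrps22 and Mrps18c each lost the call under 1 of 24 alternatives, with adjusted p up to 0.0642 and 0.152. Mammals have 3 proteins related to bacterial S18, and with vehicle Mrps18a (−0.57 ± 0.11) and Mrps18b (−0.44 ± 0.10) were lower while Mrps18c was higher. The lower calls were lost with the GC and length trend taken out, at −0.14 (adjusted p = 0.141) for Mrps18a and −0.17 (adjusted p = 0.103) for Mrps18b.

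**Figure D2:**
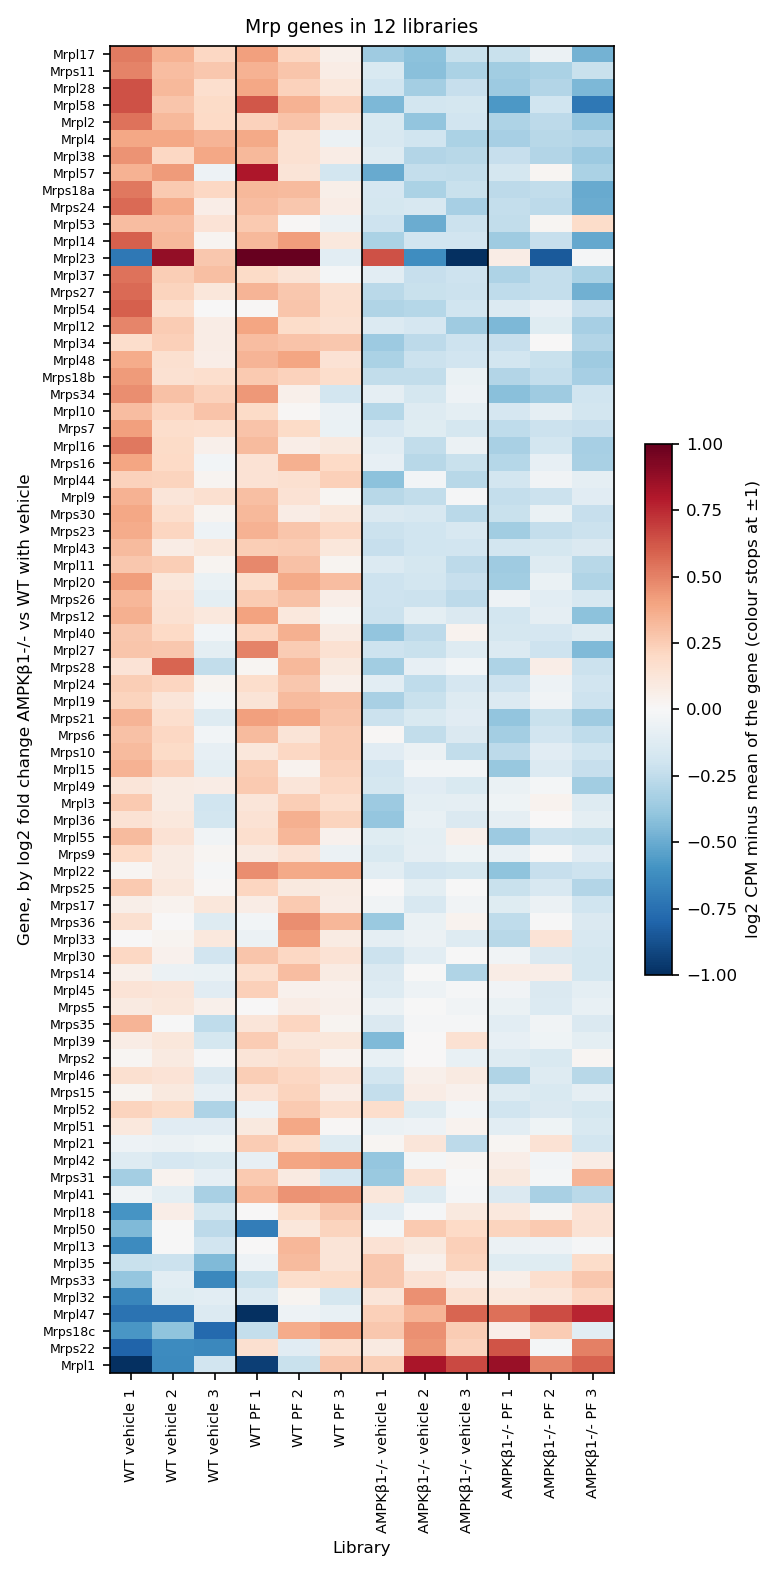
Level of each of the 78 genes (rows, by log2 fold change of AMPKβ1-/- against WT with vehicle) in each of the 12 libraries (columns), as log2 CPM minus the mean of the gene over all libraries. Red is above and blue below the mean, and the colour stops at ±1. Most rows are red in the WT and blue in the AMPKβ1-/- columns, and the rows from Mrpl32 to Mrpl1 at the bottom run the other way.

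With PF in both genotypes, 48 members were lower and 2 were higher in AMPKβ1-/- than in WT BMDMs, where 22.9% of tested genes were lower and 24.1% higher. The median log2 fold change was −0.36, against 0.00 for all tested genes. There were 59 members below and 3 above without overlap, against 30% and 29.9% of all tested genes. Mrps21, a small protein of the small subunit, was at 59.3, 58.4 and 54.3 CPM in WT and at 34.1, 38.4 and 34.9 CPM in AMPKβ1-/- libraries (−0.68 ± 0.11, adjusted p = 0.000170). Mrpl22, whose bacterial counterpart lines the exit tunnel, was at 19.8, 18.7 and 18.8 CPM in WT and at 10.9, 12.2 and 12.5 CPM in AMPKβ1-/- libraries (−0.69 ± 0.11, adjusted p = 0.000169). Mrpl58 had the lowest called value at −0.88 ± 0.15 and was the 1 lower member past the fold threshold, which 2.06% of tested genes passed as lower and 12.2% as higher. Mrpl23, the least abundant of all by CPM, had a value of −0.97 ± 0.49 that did not pass (adjusted p = 0.120). Mrpl41 (−0.65), Mrps23 (−0.55), Mrpl48 (−0.55), Mrpl14 (−0.65) and Mrps27 (−0.58) were lower as well. With the GC and length trend taken out, 18 of the 48 lower members passed again, and of the lower ones named so far with PF Mrpl14 (−0.20, adjusted p = 0.106) did not. Mrpl28 (−0.61), Mrps18a (−0.57), Mrpl2 (−0.53) and Mrps18b (−0.51) were also lower. Mrpl28 passed under all 24 alternatives. Mrps18a, Mrpl2 and Mrps18b each lost the call under 1 of 24, with adjusted p up to 0.127, 0.100 and 0.0769.

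The 2 members that were higher with PF were Mrpl47 (1.04 ± 0.27, adjusted p = 0.00545) and Mrpl1 (0.86 ± 0.32, adjusted p = 0.0408), the pair that was lowest per kilobase. Without the trend with GC content and length, Mrpl1 was at −0.043 and did not pass. Mrps18c, higher in AMPKβ1-/- BMDMs with vehicle, differed by −0.13 ± 0.17 with PF (adjusted p = 0.544), a sign that turned to 0.012 with library size alone. Mrps22 differed by 0.32 ± 0.18 (adjusted p = 0.154).

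The comparisons with vehicle and with PF share no library. In both, 35 members were lower, which is 89.7% of those lower with vehicle and 72.9% of those lower with PF. The same overlap was not counted over all tested genes, so these shares are not a result about the members. The 2 members higher with PF were also higher with vehicle. Across the 78 members the log2 fold changes of the comparisons had a Pearson correlation of 0.80, and across all tested genes of 0.85, so this likeness was not a trait of these genes alone.

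**Figure D3:**
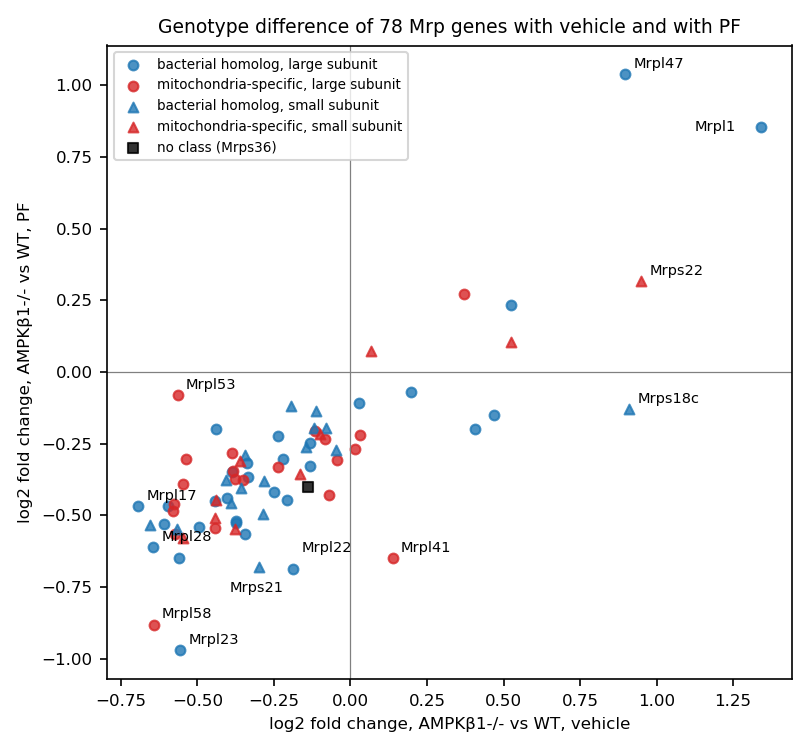
log2 fold change of AMPKβ1-/- against WT BMDMs for each of the 78 genes, with vehicle (x axis) and with PF (y axis). Circles are proteins of the large and triangles of the small subunit, blue with and red without a bacterial counterpart, and the square is Mrps36. Most points lie at lower left, Mrpl47 and Mrpl1 at upper right, and Mrps18c and Mrpl41 on opposite sides of zero in the comparisons.

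PF itself changed few of the members. In WT BMDMs, 4 of 78 were higher and 0 lower after PF, where 6.99% of tested genes were higher and 8.95% lower. None passed the fold threshold, where 1.16% of tested genes passed it as higher and 0.37% as lower. At an unadjusted p under 0.05 there were 9 higher and 2 lower members, which are smaller shares than the 17.2% and 18.1% of tested genes. Among the members 10 lay above and 2 below without overlap, against 14.2% and 18.1% of tested genes. The median log2 fold change was 0.07, against 0.00 for all tested genes. Without the third WT library with vehicle it turned to −0.014, against 0.0093 for all tested genes.

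Mrpl41, a mitochondria-specific protein of the large subunit, rose from 13.9, 13.3 and 11.3 CPM with vehicle to 17.9, 19.5 and 19.2 CPM with PF in WT BMDMs (0.56 ± 0.12, edgeR adjusted p = 0.0100). Mrps18c rose from 8.55, 9.69 and 7.46 CPM to 10.8, 16.6 and 17.1 CPM (0.79 ± 0.18, adjusted p = 0.0116). The PF libraries of both genes lay above all vehicle libraries, and the first PF library of Mrps18c was closer to vehicle than the others. Mrps22 rose from 3.85, 4.34 and 4.28 CPM to 7.46, 6.18 and 7.46 CPM (0.76 ± 0.20, adjusted p = 0.0211). Mrpl22 rose from 14.5, 15.2 and 14.2 CPM to 19.8, 18.7 and 18.8 CPM (0.38 ± 0.11, adjusted p = 0.0293). With the trend of GC content and length taken out, Mrpl41 alone of these still passed, and the calls of Mrps18c, Mrps22 and Mrpl22 were also lost when single WT libraries were left out. The lowest values, of Mrpl37 (−0.27, adjusted p = 0.0602), Mrpl10 (−0.22, adjusted p = 0.0865) and Mrps34 (−0.21, adjusted p = 0.248), did not pass, and that of Mrps34 turned to 0.043 with the GC trend taken out.

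In AMPKβ1-/- BMDMs no member passed after PF (0 higher and 0 lower by edgeR), where 0.0554% of tested genes were higher and 0% lower. At an unadjusted p under 0.05 there was 1 member, Mrpl53 (0.31 ± 0.14, higher in the mean but with overlapping libraries), against 4.29% of tested genes higher and 0.693% lower. There were 2 members above and 13 below without overlap, against 8.21% and 6.28% of tested genes, and the median was −0.03. Mrpl41 was at 15.4, 13 and 14.1 CPM with vehicle and at 12.9, 11.4 and 11.8 CPM with PF (−0.23 ± 0.12, adjusted p = 0.982). Mrps18c was at 15.4, 17.5 and 15.3 CPM and at 13.4, 15.2 and 11.9 CPM (−0.25 ± 0.17, adjusted p = 0.982). For both genes the PF libraries lay below all vehicle libraries. Mrpl46 (−0.22), Mrpl47 (0.27) and Mrps31 (0.19) did not pass.

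The response to PF in WT minus that in AMPKβ1-/- BMDMs passed for 0 of the 78 members by edgeR, where 0.176% of tested genes had a higher and 0.24% a lower response in WT. None passed the fold threshold, against 0.0832% and 0.0739% of tested genes. At an unadjusted p under 0.05 there were 7 members with a higher and 1 with a lower response, against 6.35% and 7.97% of tested genes. Mrpl41 (0.79 ± 0.17, adjusted p = 0.0687) and Mrps18c (1.04 ± 0.24, adjusted p = 0.0702) came closest, and DESeq2 called these 2 with adjusted p = 0.0180 and 0.0123. For Mrps22 the difference was 0.63 ± 0.26 (adjusted p = 0.297), for Mrpl53 −0.48, for Mrpl10 −0.24 and for Mrpl54 −0.23. The response in WT shares its vehicle libraries with the comparison of genotypes, so a low value in these libraries enters both.

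**Figure D4:**
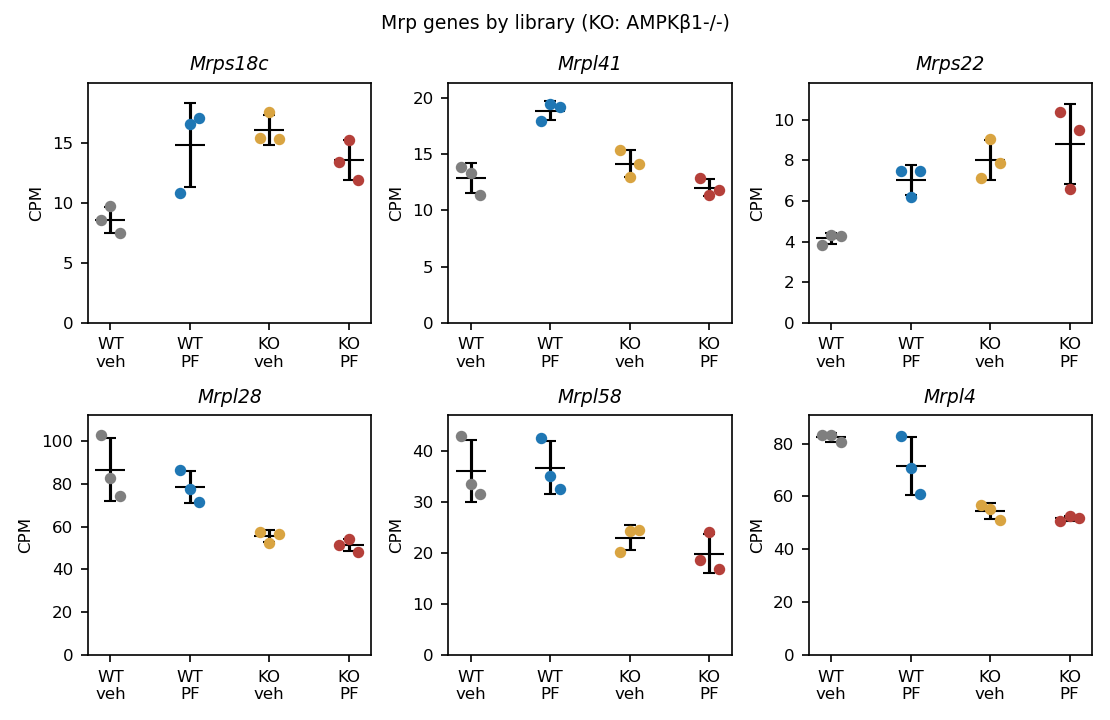
Levels of Mrps18c, Mrpl41, Mrps22, Mrpl28, Mrpl58 and Mrpl4 in each library, in CPM on axes that start at 0. Points are libraries and bars are the mean and SD of 3 libraries, and KO stands for AMPKβ1-/-. The upper genes rise with PF in WT, whereas the lower genes are lower in AMPKβ1-/- with either treatment.

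The genotype difference of the members went with the GC content of their transcripts. Of the 26 members of lowest GC content (up to 48.6%), 6 were lower with vehicle and 7 higher, of the 26 in the middle 14 were lower and 1 higher, and of the 26 of highest GC content (above 52.5%) 19 were lower and 0 higher. Of all tested genes in the same ranges, 2.90%, 26.6% and 59.0% were lower and 64.9%, 15.2% and 2.54% higher. The median log2 fold changes of the members were −0.11, −0.32 and −0.47, and of all tested genes in those ranges 0.63, −0.08 and −0.36. In each range of GC content the members were thus lower than the tested genes in median. By length this held less evenly. Of the 26 shortest members (up to 940 bases) 42.3% were lower with vehicle, against 41.8% of tested genes up to that length, with medians of −0.25 and −0.23. In the middle range of length the shares were 65.4% and 42.3%, and in the longest 42.3% and 26.2%. With the trend of every library with GC content and length taken out, 24 members were lower and 6 higher with vehicle, and 27 and 1 with PF. Of the 10822 tested genes 20.4% and 22.8% were lower, and 1484 and 1755 genes were higher. The medians of the members were then −0.14 and −0.17, against −0.03 and −0.04 for all tested genes. Among the members named above, Mrpl17 was at −1.03 and Mrpl58 at −0.60 with vehicle in that fit and both passed. The part of GC content and length in the genotype difference was not tested beyond these fits.

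**Figure D5:**
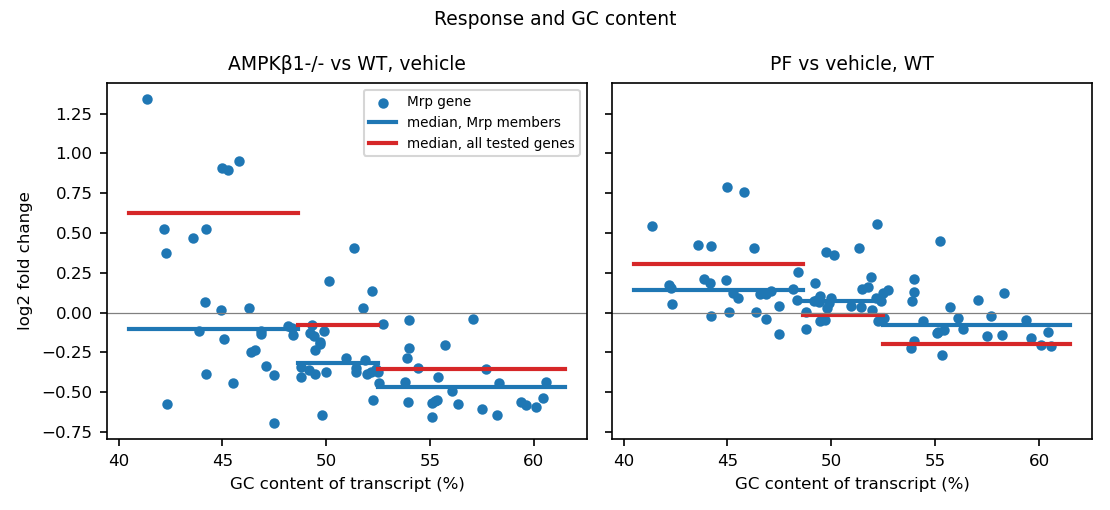
log2 fold change of each of the 78 genes (points) against the GC content of its transcripts, for AMPKβ1-/- against WT with vehicle (left) and PF against vehicle in WT (right). Lines are medians in 3 ranges of GC content, for the 78 genes (blue) and for all tested genes in the same ranges (red, with the outer ranges open beyond the axis). With vehicle the red median of the lowest range is 0.63 and the blue median −0.11.

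Other parts of the mitochondrial translation system were compared in the same fit. Of 5 mitoribosomal proteins with other names (Dap3, Ptcd3, Chchd1, Aurkaip1 and Gadd45gip1), 3 were lower and 1 higher in AMPKβ1-/- BMDMs with vehicle, and 4 and 1 with PF. Aurkaip1 was at −0.60 ± 0.11 with vehicle and −0.58 ± 0.11 with PF, and Gadd45gip1 at −0.55 with PF. With the GC and length trend taken out, Aurkaip1 was at −0.14 with vehicle (edgeR adjusted p = 0.177) and did not pass. With PF Aurkaip1 (−0.21) and Gadd45gip1 (−0.38) still passed in that fit. Ptcd3, a pentatricopeptide protein of the small subunit, was higher with vehicle (0.87 ± 0.16), and this value turned to −0.037 with the GC trend taken out. None of the 5 passed after PF in WT.

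The counts of these lists stand against the 30% lower and 29.7% higher of all tested genes with vehicle, the 22.9% and 24.1% with PF, and the 8.95% and 6.99% after PF in WT, and no list was tested against them. Where genes are named, they are among those of smallest p, and of 34 such genes with vehicle, 29 with PF and 6 after PF in WT, the GC and length offset ended the call of 20, 17 and 5. Of 26 assembly and rRNA modification factors, 11 were lower and 4 higher in AMPKβ1-/- BMDMs with vehicle (42.3% and 15.4%), and 7 and 2 with PF (26.9% and 7.69%). Rbfa, which helps mature the small subunit, was at −0.57 and Mpv17l2, which acts in assembly of the large one, at −0.70 with vehicle. Mpv17l2 was at −0.53 and Mterf3 at 1.02 with PF. With the GC and length trend taken out, Rbfa with vehicle (−0.089) did not pass, nor did Mpv17l2 (−0.17) and Mterf3 (0.45) with PF. Mpv17l2 with vehicle (−0.21) still passed in that fit. After PF in WT, 2 rose and 1 fell, with Rbfa at −0.41 ± 0.09 and Grsf1, a protein of mitochondrial RNA granules, at 0.40 ± 0.11, and both lost their call with the GC and length trend taken out. Of 15 translation factors, 3 were lower and 4 higher with vehicle (20% and 26.7%), and 5 and 2 with PF (33.3% and 13.3%). Tufm, the elongation factor that brings aminoacyl-tRNA, was at −0.56 with vehicle and −0.42 with PF, Oxa1l, the insertase at the inner membrane, at −0.45 with vehicle and Guf1 at 1.12 with PF. Without the GC and length trend, Tufm with vehicle (−0.17) and Guf1 with PF (0.56) did not pass. Tufm with PF (−0.18) and Oxa1l with vehicle (−0.25) did. Oxa1l was also the 1 translation factor that passed after PF in WT (−0.26, adjusted p = 0.0478), and this call was lost under 17 of 24 alternatives, with adjusted p up to 0.201. Of 20 genes for charging mitochondrial tRNA, 8 were lower and 4 higher with vehicle (40% and 20%), and 3 and 1 with PF (15% and 5%), and 1 rose after PF in WT. Those of smallest p were the synthetases Sars2 at −0.80 and Yars2 at 0.97 with vehicle, and Fars2 at −0.58 and Yars2 at 0.50 with PF, whereas the lowest called value was that of Lars2 at −0.97 and −1.04. Yars2 was at 0.61 after PF in WT.

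Of 9 tested genes for transcription and replication of mitochondrial DNA, 3 were lower and 3 higher in AMPKβ1-/- BMDMs with vehicle (33.3% each), and 0 and 3 (33.3%) with PF. Tfam, which packages mitochondrial DNA and starts its transcription, was at 0.78 and Tfb2m at 0.91 with vehicle, and Tfb2m at 0.70 and Mterf1a at 1.47 with PF. With the GC trend taken out, the values of Tfb2m turned to −0.065 and −0.058, and Tfam was at 0.13 (adjusted p = 0.495) and did not pass. Mterf1a with PF was at 0.47 in that fit (adjusted p = 0.255) and did not pass either. Polrmt, the mitochondrial RNA polymerase, was at −0.45 ± 0.13 after PF in WT, the 1 of the 9 that passed, and lost its call in the same fit (−0.20, adjusted p = 0.230). Of 9 transcription factors linked to mitochondrial genes, 1 was lower and 5 higher with vehicle (11.1% and 55.6%), 1 and 4 with PF (11.1% and 44.4%), and none passed after PF in WT. Gabpa, the DNA-binding subunit of GABP, averaged 6.98 ± 2.08 CPM (SD, n = 3) in WT and 17.9 ± 3.26 CPM in AMPKβ1-/- libraries with vehicle (1.34 ± 0.21) and was at 1.56 ± 0.20 with PF. Yy1 was at 0.63 with vehicle and Myc at 1.01 with PF. With the GC and length trend taken out, Gabpa was at 0.37 with vehicle and 0.81 with PF and still passed. In that fit Gabpb1 and Gabpb2, called higher with vehicle before, turned to −0.23 and −0.050.

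The cytosolic ribosome and the respiratory chain showed the same direction. Of 88 tested cytosolic ribosomal protein genes, 45 were lower and 14 higher in AMPKβ1-/- BMDMs with vehicle (51.1% and 15.9%), and 60 and 3 with PF (68.2% and 3.41%). Their medians were −0.27 and −0.41. Of 92 tested nuclear genes of respiratory chain subunits, 40 were lower and 9 higher with vehicle (43.5% and 9.78%), and 65 and 0 with PF (70.7% and 0%). Their medians were −0.25 and −0.49. Lower levels were thus also found outside the mitochondrial ribosome. The transcripts of both lists were short, with median lengths of 808 and 751 bases. Of all tested genes up to 940 bases, 41.8% were lower with vehicle and 53.1% with PF, with medians of −0.23 and −0.33. The part of transcript length in these lists was not tested. After PF in WT, 11 cytosolic ribosomal protein genes rose and 3 fell (12.5% and 3.41%), and 10 genes of respiratory chain subunits rose and 0 fell (10.9% and 0%). Of all tested genes 6.99% rose and 8.95% fell. No gene of the mitochondrial genome was in the count table, so the products that these ribosomes translate were not analysed here.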

How the data were processed

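RNA was extracted from BMDMs of 4 groups with 3 libraries each, and libraries were made with a directional kit. Per the study's methods, MultiQC, Trim Galore and Salmon served the authors for quality control, trimming and quantification. The deposited table holds Salmon's estimated counts per gene as whole numbers, without normalization. Versions, genome build, strand setting and filter are not given in the sources used here. Columns were assigned to groups by name, and the labels do not tie them to single samples or state separate cultures or mice, so p-values measure the spread between libraries, which may be technical. Replicate pairs were not identical and differed by 2.19 to 18.1 times the variance of counting alone. Depth was 8935609 to 14358180 counts, and the floor of 3 counts covers counting error only.

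The estimated counts, already whole, were tested by edgeR 4.0.16 in R 4.3.3 (TMM, filterByExpr, robust quasi-likelihood fit of 4 group means to all 12 libraries, Benjamini-Hochberg over 10822 genes). Calls used an adjusted p below 0.05, and for the fold threshold a log2 fold change beyond 0.8. SE are approximate, being the log2 fold change over the root of F. The script was tested on simulated data. Alternatives were other scalings, filters, DESeq2 1.42.0, limma-voom (limma 3.58.1), the libraries of a contrast alone, offsets for GC content and length (natural splines with 5 df each), and leaving out each library. GC content, length and exons came from GENCODE M21 (GRCm38), the median over transcripts, where 12694 genes were found under their symbol and 166 under an older one, and 100 were not found. Promoters came from RefSeq GRCm38.p6.

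The members and lists were chosen with earlier results of these data known. Named were called members (up to 12 by p in a comparison), the 3 highest and 3 lowest fold changes, the 5 highest and 3 lowest levels per length, members of special place, Prkab1, and of other pathway lists up to 6 called genes by p in a comparison. Of the last, the text gives values for some, picked after their values were seen, and the closing section gives all whose sign turned. Numbers of columns were not read as pairs, since correlations of the deviations of equally numbered libraries ran from −0.17 to 0.32.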

Additional observations from a re-analysis of the deposited data

How the results depend on the processing

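All medians of the members in the genotype comparisons stayed negative under every alternative. Library size alone raised the median of all tested genes to 0.18 with vehicle and 0.15 with PF, and left 18 and 26 members lower in AMPKβ1-/- BMDMs in place of 39 and 48. Of all tested genes 14.8% and 12.6% were then lower, in place of 30% and 22.9%. The GC and length offset left 24 and 27 lower, where 20.4% and 22.8% of tested genes were lower. It left 1 higher with PF, where 1755 of 10822 tested genes were higher. The GC offset alone, chosen after seeing the data, left 33 and 55 lower and 1 higher in either comparison, where 21% and 24.5% of tested genes were lower. The length offset alone, also chosen after seeing the data, left 38 and 39 lower and 7 and 3 higher, where 39.4% and 32.5% of tested genes were lower. With the length offset the median of the members minus that of all tested genes was −0.089 with vehicle and −0.16 with PF, against −0.29 and −0.36 in the main fit. After PF in WT, the higher members were 2 with the libraries of the contrast alone and 1 with the GC and length offset, where 210 of 10472 and 348 of 10822 tested genes were higher. The lower members were 2 with the length offset and 1 with a block by column number, both chosen after seeing the data, where 11.8% and 10.1% of tested genes were lower. Past the fold threshold there was 1 with DESeq2's size factors, upper quartile scaling, DESeq2 or the libraries of the contrast alone, and 2 with library size alone. The interaction called 1 higher member with library size alone, the GC and length offset or the GC offset, and 2 with DESeq2. Of 10822 tested genes 23, 78, 50 and 70 were called higher in these fits, in that order. Of the members 1 passed the fold threshold with library size alone, DESeq2 or the GC offset. Leaving out single libraries gave 1 (without the third vehicle library) to 9 (without the first PF library) higher and 0 to 4 lower members after PF in WT, with 0 to 1 past the fold threshold. Without the third vehicle library 260 of 10924 tested genes were higher, and the median of the members turned to −0.014. Without the first PF library 1622 of 10921 tested genes were higher and 14.8% lower. In the interaction it gave 0 to 2 higher members and 0 to 2 past the fold threshold, where 133 of 10921 tested genes were higher without the first WT library with PF. In the genotype comparison, leaving out single libraries gave 6 to 9 higher, 27 (without the first WT library) to 44 lower and 3 to 4 past the fold threshold with vehicle, and 1 to 2, 37 to 50 and 0 to 4 with PF. With vehicle 24.6% of tested genes were lower at 27 members and 28% at 44. With PF 17% were lower at 37 members, without the first AMPKβ1-/- library with PF, and 23.2% at 50. After PF in AMPKβ1-/- BMDMs, leaving out single libraries gave 0 calls of members. Signs turned for Mrps34 (0.043, PF in WT) and Mrpl54 (0.0015, interaction) with the GC offset. With vehicle they turned with library size alone for Mrpl45 (0.095) and Mrps36 (0.071), with the GC and length offset for Mrps12 (0.11), Esrra (0.042), Gabpb1 (−0.23), Gabpb2 (−0.050), Lrpprc (−0.037) and Ssbp1 (−0.097), and with the GC offset for Mrps12 (0.024), Esrra (0.014), Gabpb1 (−0.30), Ssbp1 (−0.23), Ptcd3 (−0.037) and Tfb2m (−0.065). With PF they turned with library size alone for Mrps18c (0.012), with the GC and length offset for Mrpl1 (−0.043), Mrps12 (0.011), Gabpb2 (−0.088) and Ptcd3 (−0.13), with the GC offset for Mrpl1 (−0.067), Ptcd3 (−0.20), Ssbp1 (−0.0069) and Tfb2m (−0.058), and with the length offset for Mrps18c (0.15) and Gabpb2 (−0.089). Of the genes named by rule from other lists, the GC and length offset ended the call of 20 of 34 with vehicle, 17 of 29 with PF and 5 of 6 after PF in WT. The replicate block by column number gave 5 higher and 1 lower members after PF in WT and changed no other count of members, and the numbers show no pairing of the samples. For members near the floor, such as Mrpl23 with 4 counts in 1 library, depth limits what could be detected, and the cause of the changes was not tested.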
